A study of Mus musculus with 25 samples.

Results

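The 10 genes described here are the transcriptional coactivators Yap1 (encoding YAP) and Wwtr1 (encoding TAZ), 5 genes of the CCN family, and Ankrd1, Amotl2 and Lats2. They were chosen by name from the 47729 genes listed in the bulk RNA-seq table and the 31053 genes in each single-cell matrix. The bulk table uses the newer CCN symbols and the single-cell matrices the older ones, so that Ccn1 is Cyr61, Ccn2 is Ctgf, Ccn3 is Nov, Ccn4 is Wisp1 and Ccn5 is Wisp2. All 10 were found in both, and all 10 passed the filter on low counts that left 15773 bulk genes for testing.

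The study asked what happens to lung fibroblasts when the death receptor Fas is removed during bleomycin-induced fibrosis, a lung injury that in mice is followed by scarring and later by its resolution. Lineage-negative (Lin-) cells, sorted as live cells without CD45, CD31 and CD326, were taken from the lungs of Col1a1-Cre-ERT2;Fas fl/fl mice, and all 5 groups, naive mice included, carried both alleles. Fas+/+ groups were given bleomycin and corn oil, and Fas-/- groups bleomycin and tamoxifen, with harvest at week 3 or week 6; the naive group had no bleomycin. Each of the 5 bulk groups (naive, week 3 Fas+/+, week 3 Fas-/-, week 6 Fas+/+, week 6 Fas-/-) held 4 libraries, 20 in all, and 5 more libraries, 1 per group, were single-cell. The Cre driver acts only in cells that use the Col1a1 promoter, and Fas loss cannot be told apart from tamoxifen itself. The study describes its replicates as individual animals and each single-cell library as a pool of 4 mice; the labels state neither, nor the age of the mice, and p-values measure the spread between these libraries.

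In the Hippo pathway, the kinases Stk3 and Stk4 activate Lats1 and Lats2, which phosphorylate YAP and TAZ and keep them out of the nucleus. When the kinases are quiet, as in cells on stiff matrix, YAP and TAZ enter the nucleus and bind TEAD transcription factors, and in lung fibroblasts this has been linked to matrix production. Ccn1, Ccn2, Ankrd1, Amotl2 and Lats2 are standard targets of this complex, and the last pair feeds back to restrain it. CCN proteins are secreted matricellular proteins that bind integrins and growth factors. YAP and TAZ activity is set mainly by protein location, which RNA levels do not measure.

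TEAD factors bind the letters GGAATG, which read CATTCC on the other strand. A RefSeq table of promoters (GRCm38.p6) held Yap1, Wwtr1, Ccn1, Ankrd1, Amotl2 and Lats2, and no entry for Ccn2, Ccn3, Ccn4 and Ccn5. These letters were present in the 250 bases before a start in 5 of the 6 genes, against 12.6% of the 32851 promoters in the table. The sequences are shown because this motif is the one named for the complex; they read 5′ to 3′ on the gene's strand and the capitals mark the motif. The first 3 give all 250 bases, and the last 2 a short window around the motif.
Ccn1, chr3:145649986-145650235, minus strand: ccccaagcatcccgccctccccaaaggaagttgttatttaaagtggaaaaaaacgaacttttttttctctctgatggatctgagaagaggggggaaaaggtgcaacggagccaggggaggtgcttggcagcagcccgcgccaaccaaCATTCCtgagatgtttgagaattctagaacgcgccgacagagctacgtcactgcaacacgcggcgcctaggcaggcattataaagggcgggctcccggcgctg
Ankrd1, chr19:36119845-36120094, minus strand: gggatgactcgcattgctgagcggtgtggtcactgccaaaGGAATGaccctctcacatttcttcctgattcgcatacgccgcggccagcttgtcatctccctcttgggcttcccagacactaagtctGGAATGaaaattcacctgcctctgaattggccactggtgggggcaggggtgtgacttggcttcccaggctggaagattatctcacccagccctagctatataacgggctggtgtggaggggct
Amotl2, chr9:102717554-102717803, plus strand: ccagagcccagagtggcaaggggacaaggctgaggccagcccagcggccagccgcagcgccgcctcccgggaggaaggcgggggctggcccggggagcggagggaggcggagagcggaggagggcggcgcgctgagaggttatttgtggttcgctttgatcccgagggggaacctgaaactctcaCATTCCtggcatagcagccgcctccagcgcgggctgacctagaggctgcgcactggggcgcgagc
Yap1, chr9:8004712-8004757, minus strand: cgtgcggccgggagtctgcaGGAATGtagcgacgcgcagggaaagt
Wwtr1, chr3:57576021-57576066, minus strand: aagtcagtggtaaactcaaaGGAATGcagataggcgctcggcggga
The motif began 103 bases before the start in Ccn1, 65 in Amotl2 and 141 in Yap1, and Ankrd1 held it at 210 and at 123 bases. In Wwtr1 it lay 136 or 170 bases before, depending on which of its starts was used, and Lats2 had no match in this window. The AP-1 letters TGANTCA, searched on both strands as well, were in 0 of the 6 and in 6.75% of all promoters. A match is a description of the letters and not of binding.

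Bulk libraries held 11819700 to 25189096 gene counts (median 20122870). Fas itself was not lower in the Fas-/- libraries, at 44.2 ± 14.2 CPM (counts scaled to a library total of 1000000; mean ± SD, n = 4) against 41.0 ± 11.3 at week 3 and 40.4 ± 4.59 against 31.4 ± 6.24 at week 6; the count covers the whole gene, including exons outside the deleted part. Replicate 1 of week 3 Fas+/+ and replicate 4 of week 3 Fas-/- stood apart, with summed blood endothelial markers of 8571 and 7650 CPM. Their profibrotic fibroblast markers summed to 14018 and 24803 CPM, the lowest values of their groups, beside 16803 to 24756 in naive libraries. In each bleomycin group the library highest in blood endothelial markers was left out, 4 in all and together, as an alternative. Calls of the 10 genes that were gained without these 4 libraries are named below. They were not the 4 highest overall: every week 3 Fas+/+ library held at least 2211 CPM, and the one left out at week 6 in Fas+/+ held 1609. Naive libraries held 161 to 426 CPM and week 3 Fas-/- libraries a median of 814. Leaving out 1 library a group therefore kept an endothelial difference between these groups. Immediate early genes, which rise during tissue dissociation, summed to 10325 to 13238 CPM in naive libraries and 6946 to 16398 in the others.

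The levels of the 10 genes spanned more than 2 orders of magnitude. Per kb of gene model, the median over the 20 libraries was 856 CPM per kb for Ccn1, 383 for Ccn2, 93.8 for Ccn5, 48.7 for Amotl2, 42.4 for Wwtr1, 29.4 for Lats2, 27.0 for Ccn3, 14.0 for Yap1, 4.29 for Ccn4 and 2.70 for Ankrd1. Yap1 was among the steadiest genes measured: its highest library was 1.23 times its lowest, and the SD of its log2 CPM was at percentile 2.15 of all genes tested. The same fold was 1.44 for Wwtr1 and 1.48 for Lats2, but 4.07 for Ccn3, 5.50 for Ankrd1 and 7.94 for Ccn4. The remaining CCN gene, Ccn6, had a mean below 1 CPM in every group and was not tested.

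**Figure D1:**
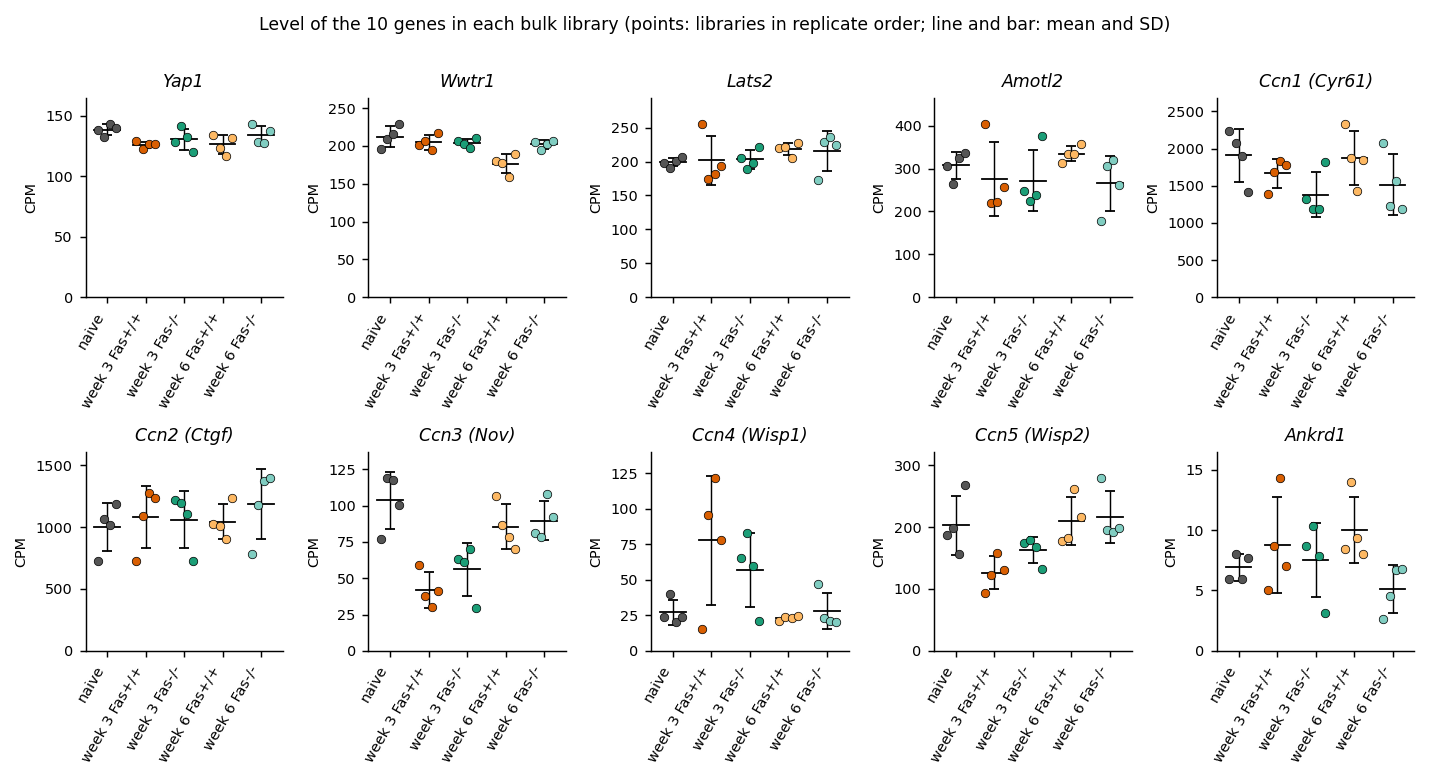
CPM (y axes, from 0) of the 10 genes in the 20 bulk libraries; points are libraries, lines the means and bars the SD of each group of 4. Ccn3 at week 3 lay between 29.3 and 70.4 CPM in both genotypes, below the naive range of 76.9 to 119, whereas Yap1 stayed between 116 and 143 throughout.

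Of the coactivators, Yap1 (ENSMUSG00000053110, GRCm38 chr9:7931999-8004596, minus strand) read 138, 132, 143 and 140 CPM in naive libraries and 129, 123, 126 and 127 in week 3 Fas+/+. Every week 3 Fas+/+ library was below every naive one, yet the log2 difference was small, -0.13 (95% interval -0.25 to -0.02), and did not pass the test (edgeR quasi-likelihood, adjusted p = 0.0816). In week 3 Fas-/- the 4 libraries read 128, 141, 133 and 120 CPM, at week 6 Fas+/+ 134, 123, 116 and 131, and at week 6 Fas-/- 143, 129, 128 and 137. These groups overlapped one another, and no comparison of Yap1 passed the test.

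Wwtr1 (ENSMUSG00000027803, chr3:57455649-57575910, minus strand) was lower at week 6 in Fas+/+ than in naive cells. It read 196, 209, 216 and 229 CPM in naive libraries and 180, 178, 159 and 189 at week 6 in Fas+/+, with no overlap. The log2 difference was -0.27 (SE 0.0611, adjusted p = 0.0142, edgeR), in a comparison where 5.31% of all genes tested were called, meaning an adjusted p of 0.05 or less. Leaving out naive replicate 4 or week 6 Fas+/+ replicate 3 ended the call, the highest adjusted p being 0.0659. Against week 3 Fas+/+ (201, 206, 195 and 217 CPM) the difference was -0.21 (adjusted p = 0.0174), a call kept in 9 of 14 alternatives. The week 6 Fas-/- libraries, at 205, 194, 203 and 207 CPM, all lay above the week 6 Fas+/+ ones. That genotype difference was 0.20 (0.08 to 0.32) on the log2 scale and did not pass the test over all genes (unadjusted p = 0.00506, adjusted p = 0.284, edgeR; smallest exact permutation p for 4 against 4, 0.0286).

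Of the feedback genes, Lats2 (ENSMUSG00000021959, chr14:57689662-57758388, minus strand), the kinase that phosphorylates YAP and TAZ, averaged 199 ± 6.57 CPM in naive cells and 202 to 218 in the 4 bleomycin groups. The highest library, 255 CPM, was week 3 Fas+/+ replicate 1, one of those rich in endothelial markers, and the lowest, 172, was week 6 Fas-/- replicate 1. Lats2 passed the test in no comparison. Without the 4 libraries it was called higher at week 6 than at week 3 in Fas+/+ (0.24, adjusted p = 0.0499), as it was without week 3 Fas+/+ replicate 1 alone. Amotl2 (ENSMUSG00000032531, chr9:102716672-102733418, plus strand), an angiomotin family protein that binds YAP at cell junctions, was 308 ± 31.4 CPM in naive cells and passed in none either.

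Amotl2 did depend on the libraries with endothelial markers. At week 3 it read 404, 220, 222 and 257 CPM in Fas+/+ and 248, 225, 239 and 377 in Fas-/-, against 307, 265, 325 and 337 in naive libraries. The high value of each week 3 group was the library with the most endothelial markers, and the other 3 libraries of each group were below every naive one. Without the 4 libraries Amotl2 was called lower than naive in week 3 Fas+/+ (log2 difference -0.41, adjusted p = 0.0277) and in week 3 Fas-/- (-0.39, adjusted p = 0.0427), and higher at week 6 than at week 3 in Fas+/+ (0.52, adjusted p = 0.0133). In bulk RNA, a change in the number of cells of a type and a change in RNA per cell cannot be told apart, here and below.

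Among the CCN genes the immediate targets Ccn1 and Ccn2 were not called in any comparison, while the other 3 were called at week 3. Ccn1 (Cyr61, ENSMUSG00000028195, chr3:145646976-145649981, minus strand), known to induce senescence of fibroblasts, read 2237, 2077, 1906 and 1412 CPM in naive libraries. In week 3 Fas+/+ it read 1382, 1681, 1826 and 1778, and in week 3 Fas-/- 1325, 1185, 1184 and 1821. The groups overlapped, and the lowest naive value came from replicate 4. The highest week 3 Fas-/- value came from the library of that group richest in endothelial markers. That library was also the highest of its group in immediate early genes (16398 CPM, group median 9179). In week 3 Fas+/+ the library richest in endothelial markers had the lowest Ccn1 of its group, 1382 CPM. The part of either marker set in Ccn1 was not tested. The week 3 Fas-/- difference from naive was -0.47 (-0.85 to -0.08; adjusted p = 0.0773, edgeR). It was called at -0.64 (adjusted p = 0.0122) without the 4 libraries.

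At week 6 Ccn1 was at 2331, 1877, 1432 and 1845 CPM in Fas+/+ and 2078, 1229, 1559 and 1190 in Fas-/-. Its mean was lower in Fas-/- than in Fas+/+ at both times, by -0.27 (-0.66 to 0.11) at week 3 and -0.31 (-0.69 to 0.08) at week 6 on the log2 scale, and neither passed the test (adjusted p = 0.757 and 0.816). The intervals include 0 and falls of up to 0.66 and 0.69.

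Ccn2 (Ctgf, ENSMUSG00000019997, chr10:24595442-24598683, plus strand), a profibrotic CCN protein and the most used readout of YAP and TAZ, was level across groups. It read 730, 1065, 1018 and 1183 CPM in naive libraries, and 727, 1091, 1278 and 1238 in week 3 Fas+/+. The difference was 0.12 (-0.30 to 0.53; adjusted p = 0.688, edgeR), so a rise of more than 0.53 on the log2 scale lies outside the interval. Group means ran from 999 ± 193 (naive) to 1186 ± 284 (week 6 Fas-/-), and the lowest libraries of both week 3 groups, at 727 and 728 CPM, were those rich in endothelial markers. Each group spread over a range as wide as that among the groups.

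Ccn3 (Nov, ENSMUSG00000037362, chr15:54745702-54754039, plus strand), known to counter some actions of Ccn2, fell at week 3. Naive libraries read 76.9, 119, 118 and 100 CPM, and week 3 Fas+/+ 59.5, 37.5, 30.3 and 41.0, with no overlap. The log2 difference was -1.30 (SE 0.241, -1.77 to -0.83, adjusted p = 0.000468, edgeR). In this comparison 41.3% of all genes tested were called and 32.2% had groups that did not overlap, and of the 10 genes 3 were called and 2, Ccn3 and Yap1, did not overlap.

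In week 3 Fas-/- Ccn3 read 63.5, 61.5, 70.4 and 29.3 CPM, again all below naive. The difference was -0.88 (SE 0.238, adjusted p = 0.00974), and Ccn3 was the 1 gene of the 10 called there and the 1 without overlap, against 32% of all genes called and 31.1% without overlap. By week 6 it was back at 106, 86.4, 78.2 and 70.4 CPM in Fas+/+ and 81.0, 78.4, 108 and 92.0 in Fas-/-. The rise from week 3 was 1.02 in Fas+/+ (SE 0.239, adjusted p = 0.00555). In Fas-/- the weeks did not overlap either, and the difference of 0.68 missed the threshold (adjusted p = 0.0812); DESeq2 called it (adjusted p = 0.0441), as did edgeR without the 4 libraries (0.53, adjusted p = 0.0473). The 3 Ccn3 calls of the full fit held in 14 of 14 alternatives.

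Between genotypes at week 3, Ccn3 differed by 0.42 (-0.05 to 0.88; adjusted p = 0.69). The lowest Fas-/- library was replicate 4 with its endothelial markers, and without the 4 libraries Ccn3 was called higher in Fas-/- (0.83, adjusted p = 0.00892). Calls between these groups over all genes numbered 27 with every library and 1289 without the 4. That alternative leaves 3 libraries a group. It does not level the endothelial markers: every week 3 Fas+/+ library held at least 2211 CPM of them, against a median of 814 over the week 3 Fas-/- libraries. The vascular smooth muscle markers moved with Ccn3: 5 of 7 were lower in week 3 Fas+/+ than in naive cells and 6 of 7 in week 3 Fas-/-, against 19.2% and 14.8% of all genes. Their summed level ran from 2836 to 4723 CPM in naive libraries, 1883 to 2207 in week 3 Fas+/+ and 1040 to 2629 in week 3 Fas-/-. The fall was not particular to these markers. In week 3 Fas+/+ the sum of pericyte markers was 1832 to 2232 CPM against 2831 to 3900 in naive libraries. That of airway smooth muscle or ductal myofibroblast markers was 487 to 783 against 798 to 1290, and lipofibroblast markers were lower too. The part of any cell type in the Ccn3 difference was not tested.

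Ccn4 (Wisp1, ENSMUSG00000005124, chr15:66891320-66923201, plus strand), a Wnt-induced CCN protein with profibrotic activity, rose at week 3 in Fas+/+. It read 23.8, 40.1, 20.6 and 24 CPM in naive libraries and 15.4, 95.6, 122 and 78.1 in week 3 Fas+/+. Replicate 1, with the endothelial markers, was the lowest of the 8 and the other 3 were the highest. The log2 difference was 1.51 (SE 0.472, 0.59 to 2.44, adjusted p = 0.0158, edgeR). It was lost without week 3 Fas+/+ replicate 3 or when the compared groups were fitted alone (highest adjusted p 0.0624), and was 1.85 (adjusted p = 3.14e-05) without the 4 libraries.

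In week 3 Fas-/- Ccn4 read 65.1, 82.9, 59.7 and 20.7 CPM, a difference from naive of 1.07 (0.16 to 1.99) that did not pass (adjusted p = 0.0873); without the 4 libraries it was 1.34 (adjusted p = 0.00103). At week 6 it was at 21.1, 23.7, 23.3 and 24.6 CPM in Fas+/+, and the fall from week 3 was called (-1.74, SE 0.476, adjusted p = 0.0137), except without week 3 Fas+/+ replicate 3 (adjusted p = 0.0544). Week 6 Fas-/- read 47.1, 23.4, 21.2 and 20.1 CPM, so that 1 of the 4 libraries was above every week 6 Fas+/+ library. The fall from week 3 in Fas-/- was -1.03 (adjusted p = 0.176), and was called without the 4 libraries (-1.23, adjusted p = 0.0102). The profibrotic fibroblast markers moved with Ccn4: 6 of 8 were higher in week 3 Fas+/+ than in naive cells and 5 of 8 in week 3 Fas-/-, against 22.1% and 17.2% of all genes. Their summed levels were 14018 to 68421 and 24803 to 58868 CPM, against 16803 to 24756 in naive libraries. Their part in the Ccn4 difference was not tested.

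Ccn5 (Wisp2, ENSMUSG00000027656, chr2:163820861-163833146, plus strand) lacks the C-terminal domain of the other CCN proteins and is known as an antifibrotic member. It fell at week 3 in Fas+/+, from 188, 199, 156 and 269 CPM in naive libraries to 93.7, 123, 158 and 131. The groups overlapped by 1 library, and the log2 difference was -0.68 (SE 0.184, -1.04 to -0.32, adjusted p = 0.00671, edgeR), called in 14 of 14 alternatives. In week 3 Fas-/- it read 174, 178, 168 and 132 CPM, a difference from naive of -0.32 (adjusted p = 0.198).

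At week 6 Ccn5 stood at 177, 183, 261 and 217 CPM in Fas+/+, all above week 3, and the rise of 0.73 was called (SE 0.184, adjusted p = 0.00867). In Fas-/- it read 280, 195, 192 and 199 CPM, also all above week 3, with a difference of 0.41 that did not pass (adjusted p = 0.168). Lipofibroblast markers moved with Ccn5: 7 of 8 were lower in week 3 Fas+/+ than in naive cells, against 19.2% of all genes. Their summed level was 3329 to 5439 CPM against 9495 to 11120. In week 3 Fas-/- 4 were lower and 1 higher (14.8% and 17.2% of all genes), with a sum of 5406 to 7081 CPM. Their part in the Ccn5 difference was not tested.

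**Figure D2:**
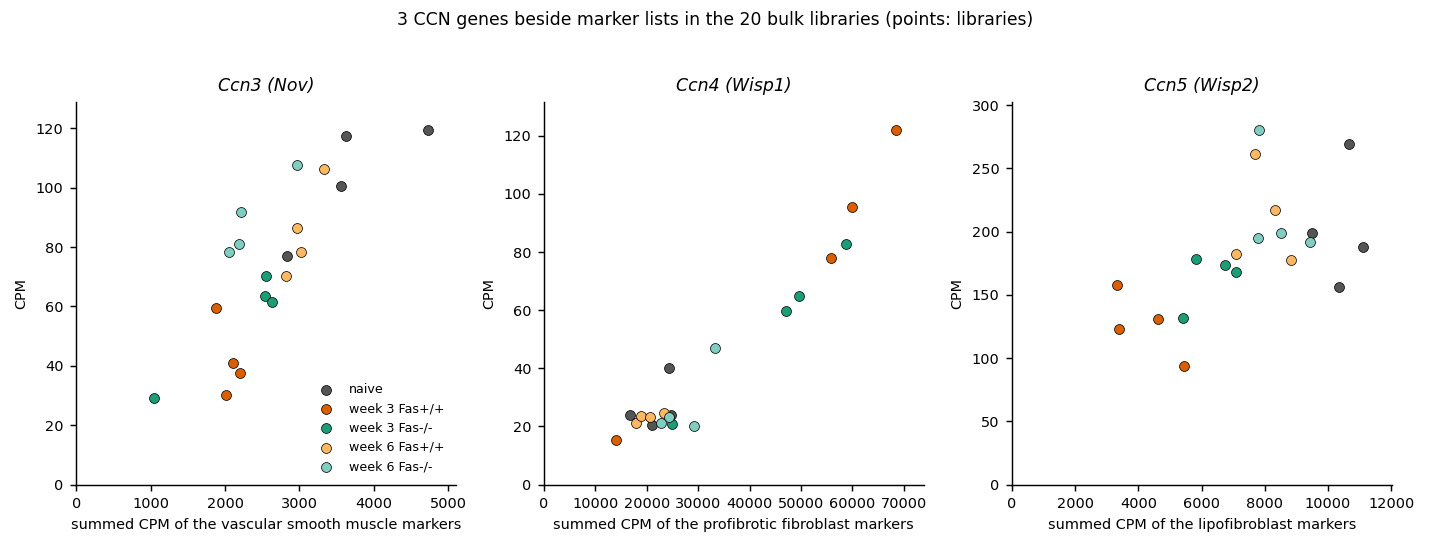
CPM (y axes) of Ccn3, Ccn4 and Ccn5 in the 20 bulk libraries against the summed CPM (x axes) of the vascular smooth muscle, profibrotic fibroblast and lipofibroblast markers; each point is a library, coloured by group. The week 3 Fas+/+ library with 14018 CPM of profibrotic markers had 15.4 CPM of Ccn4, and the one with 68421 CPM had 122.

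Ankrd1 (ENSMUSG00000024803, chr19:36111961-36120099, minus strand) encodes a muscle ankyrin repeat protein and was the gene with the lowest level. It read 5.99, 8.03, 5.97 and 7.70 CPM in naive libraries, 5.05, 8.65, 14.4 and 7.05 in week 3 Fas+/+, and 8.72, 10.3, 7.88 and 3.16 in week 3 Fas-/-. At week 6 it was at 8.47, 14.0, 9.37 and 8.06 CPM in Fas+/+ and 2.61, 4.51, 6.66 and 6.79 in Fas-/-. All 4 Fas+/+ libraries were above the Fas-/- ones and above the naive ones, and the difference from naive was not called (0.53, adjusted p = 0.446). Between the genotypes the log2 difference was -0.96 (-1.65 to -0.26) and did not pass over all genes (unadjusted p = 0.0151, adjusted p = 0.426, edgeR; exact permutation p = 0.0286). In the single-cell libraries Ankrd1 lay in vascular smooth muscle-like and epithelial-like cells. Epithelial markers summed to 523 to 1468 CPM at week 6 in Fas+/+, 140 to 404 in Fas-/- and 50.5 to 128 in naive libraries. Vascular smooth muscle markers summed to 2823 to 3328, 2053 to 2964 and 2836 to 4723 CPM in the same order. Week 6 Fas+/+ replicate 2 was highest of its group in epithelial markers and in Ankrd1. The part of either class was not tested.

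In the remaining comparisons the counts were as follows. In week 6 Fas+/+ against naive, Wwtr1 alone was called, and Wwtr1 and Ankrd1 did not overlap, against 16.6% of all genes. In week 6 against week 3 in Fas+/+, 4 of 10 were called (Ccn3 and Ccn5 higher, Ccn4 and Wwtr1 lower), against 22.9% of all genes, and 3 did not overlap, against 23.5%. In Fas-/- 0 of 10 were called against 9.02%, with 3 at an unadjusted p under 0.05 and 1 by DESeq2, and 2 did not overlap, against 17.4%. In week 6 Fas-/- against naive 0 were called against 6.48%, with 0 at an unadjusted p under 0.05 and 0 by DESeq2, and 0 did not overlap, against 16.1%. Between genotypes 0 of 10 were called at week 3, where 0.171% of all genes were called, and 0 at week 6, where 0.0507% were; DESeq2 called 0 at both, and at an unadjusted p under 0.05 the counts were 0 and 2. Groups without overlap numbered 0 at week 3 (background 3.92%) and 2 at week 6 (6.81%), namely Wwtr1 and Ankrd1. The genotype by time interaction gave 0 of 10 by either tool (background 0.00634%), with 1, Wwtr1, at an unadjusted p under 0.05. Of all 15773 genes tested, 4031 had an unadjusted p under 0.05 in week 6 against week 3 in Fas-/-. In week 6 Fas-/- against naive 3307 did. Between genotypes the number was 1359 at week 3 and 1273 at week 6, and it was 1210 in the interaction. With week 3 called and week 6 not, or Fas+/+ called and Fas-/- not, the difference between those differences was tested only by this interaction.

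**Figure D3:**
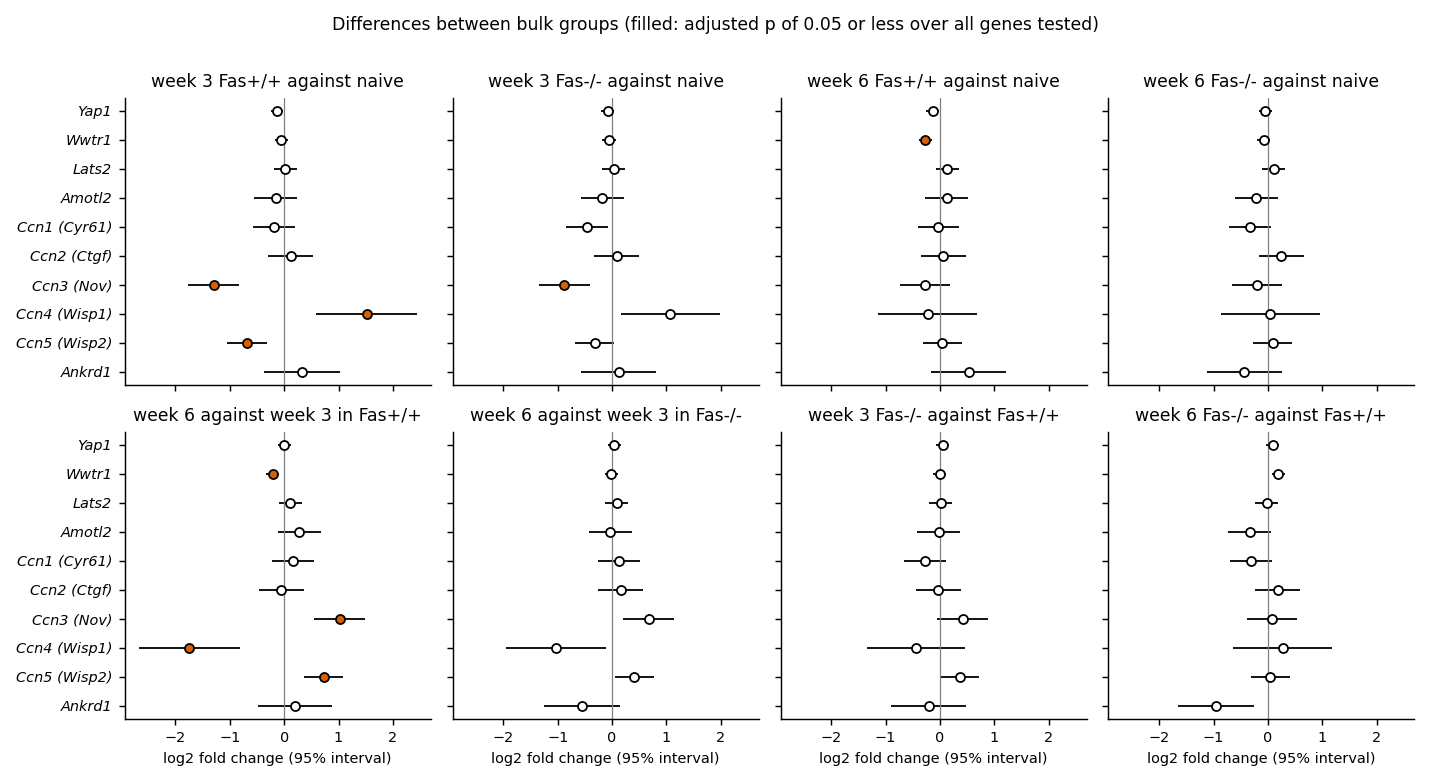
Log2 fold changes (x axes) of the 10 genes in 8 comparisons of bulk groups with 95% intervals from the edgeR fit; filled points are called. The intervals of Yap1 and Wwtr1 are narrow, and those of Ccn4 and Ankrd1 wide; filled points appear for Ccn3, Ccn4 and Ccn5 at week 3 in Fas+/+, for Ccn3 at week 3 in Fas-/-, for Wwtr1 at week 6 in Fas+/+, and for these 4 genes between the weeks in Fas+/+.

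The other genes of the pathway were read from 3 lists. Of 20 Hippo kinases, adaptors and upstream regulators, 5 were called higher than naive and 0 lower in week 3 Fas+/+, among them the core kinase Stk4 (log2 difference 0.85), the YAP-binding Amot (0.48), the kinase Map4k4 (0.45) and the Lats cofactor Mob1b (0.41). The list's median was 0.23 beside 0.01 for all genes, of which 22.1% were called higher and 19.2% lower. In week 3 Fas-/- 5 were also higher and 0 lower (17.2% and 14.8% of all genes), among them Stk4 (0.85), Map4k4 (0.34), Mob1b (0.33) and the kinase Lats1 (0.20). At week 6 the scaffold Wwc1 was called higher in Fas+/+ (1.69), where 3.57% of all genes were called higher and 1.74% lower, and 0 of the 20 in Fas-/-, where 3.66% were higher and 2.81% lower. The epithelial markers given above stood over naive in both week 6 groups and highest in Fas+/+. Their part in the Wwc1 difference was not tested. From week 3 to week 6, 5 fell and 1 rose in Fas+/+, with Map4k4 at -0.65, Amot at -0.45, Mob1b at -0.35, Amotl1 at -0.34, Lats1 at -0.25 and Wwc1 at 1.37, and 3 fell in Fas-/-, namely Map4k4 (-0.30), Lats1 (-0.29) and Mob1b (-0.28). Of all genes 12% rose and 10.9% fell in Fas+/+, and 4.48% and 4.54% in Fas-/-.

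Of 8 TEAD factors and VGLL cofactors, which compete with YAP and TAZ for TEAD, 6 were tested. In week 3 Fas+/+ 3 of the 6 were called, against 41.3% of all genes, and in week 3 Fas-/- 1, against 32%. Tead4 rose in both week 3 groups, by 2.76 in Fas+/+ and 2.10 in Fas-/- on the log2 scale. In week 3 Fas+/+ Vgll4 (0.28) was also higher and Vgll3 (-0.61) lower, and Tead2 fell from week 3 to week 6 in Fas+/+ (-0.34). At week 6 0 of the 6 were called by edgeR against naive, where 5.31% of all genes were called in Fas+/+ and 6.48% in Fas-/-.

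The last list held 17 more genes known as YAP and TAZ targets. In week 3 Fas+/+ 5 of 17 were higher and 7 lower, against 22.1% and 19.2% of all genes. Those higher were the ectonucleotidase Nt5e (1.85), the kinase Nuak2 (1.65), Dock5 (0.83), the phosphatase Ptpn14 (0.41) and Asap1 (0.26). Among those lower were Igfbp3 (-1.79), an IGF-binding protein, tissue factor F3 (-0.72), the transcription factor Foxf2 (-0.69) and Crim1 (-0.69). The median was 0.12 beside 0.01 for all genes. Week 3 Fas-/- had 3 higher (Nt5e 1.85, Nuak2 1.64 and Asap1 0.18) and 6 lower (17.2% and 14.8% of all genes), led by Igfbp3 (-1.88) and Crim1 (-0.75). Nt5e remained above naive at week 6 in Fas+/+ (2.47) and Fas-/- (1.56), and Nuak2 in Fas+/+ (1.23). From week 3 to week 6, Igfbp3 rose by 1.07 in Fas+/+ and 1.23 in Fas-/-. Of the 3 lists 0 genes were called by edgeR between genotypes at either time or in the interaction, where few genes were called at all: 0.165% higher and 0.00634% lower at week 3, and 0.0254% in each direction at week 6.

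Immediate early genes, several of which share inducers with Ccn1, were called in both directions at week 3 in Fas+/+, as were all genes. Of 14, Egr2 (1.65) and Ier3 (2.54) were called higher, against 22.1% of all genes. Fos (-0.74) and Fosb (-1.08) were called lower, against 19.2%. Over the 20 libraries, the genes whose log2 CPM followed each of the 10 most closely among 13627 genes are given as a description; the libraries share groups, cell makeup and depth. For Ccn1 the closest were the immediate early gene Nr4a1 (Pearson r = 0.78), Ccdc15 (0.75) and Primpol (0.75). Ccn3 followed Peli3 (0.96), Adamtsl4 (0.94) and the basement membrane collagen Col4a6 (0.94). Ccn4 followed Cd276 (0.97), the hyaluronan synthase Has2 (0.96) and the collagen Col7a1 (0.95). Ccn5 followed Pcdhb20 (0.91), Cd82 (0.87) and Fads1 (0.87), and Ccn2 followed Nucb1 (0.83), Vasn (0.81) and Nfil3 (0.81). For Yap1 the closest were Hnrnpul2 (0.87), Suds3 (0.87) and Golgb1 (0.86), for Amotl2 Aup1 (0.89), Emp2 (0.88) and Prkar2a (0.88), and for Lats2 Mepce (0.88), Srsf7 (0.88) and Alkbh5 (0.87). Wwtr1 had looser neighbours in Gm38394 (0.77), Tcf7l2 (0.75) and Atad2b (0.74), as did Ankrd1 in Rangap1 (0.80), Cct6a (0.77) and Prune2 (0.76).

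The 5 single-cell libraries locate the 10 genes among cell classes, but their week labels went against the bulk groups. Across 10183 genes, centred log2 profiles of the library labelled week 3 Fas+/+ correlated best with bulk week 6 Fas+/+ (Pearson r across genes = 0.73, against -0.34 with its own label). The library labelled week 6 Fas+/+ correlated at 0.94 with bulk week 3 Fas+/+ and at -0.53 with its own label. The library labelled week 3 Fas-/- gave 0.60 with bulk week 6 Fas-/- (-0.32 with its own), the one labelled week 6 Fas-/- gave 0.54 with bulk week 3 Fas-/- (-0.09), and naive gave 0.86 with naive. Of genes called between the weeks in bulk, 3.53% in Fas+/+ and 6.06% in Fas-/- moved in the same direction between the single-cell libraries as labelled. Whether the week labels of the single-cell or of the bulk libraries are the exchanged ones was not tested; bulk results are given under their labels, and no direction between weeks is drawn from the single-cell libraries. Genotype labels had no such mismatch.

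**Figure D4:**
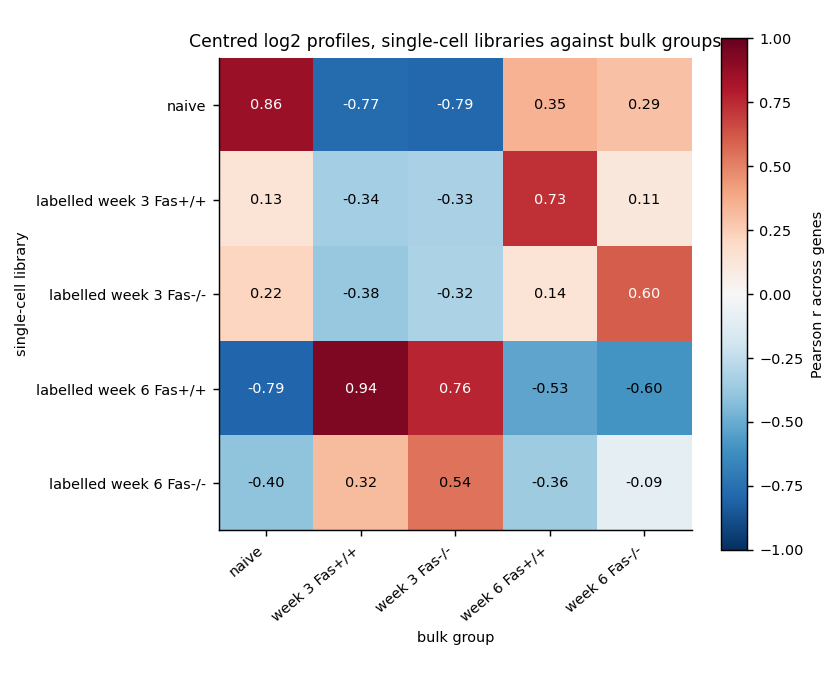
Pearson correlation across 10183 genes between each single-cell library (rows, summed UMIs) and the mean of each bulk group (columns), after centring log2 values within each data type; colour and printed value give r. For each of the 4 bleomycin libraries the highest value lies with the bulk group of its genotype and the other week, such as 0.94 for the library labelled week 6 Fas+/+.

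After the filter on cells 12059 of 13900 barcodes were kept, with library medians of 5768 to 8896 unique molecular identifiers (UMIs, each standing for a captured RNA molecule). Levels are given as CPM of UMIs, scaled to 1000000 UMIs of the library or class. Some 607 barcodes occurred in more than 1 library, and 1007 kept cells were shallow copies of a barcode that was deeper in another library (median 756 UMIs); leaving them out kept 50 of 50 whole-library values within their counting intervals. With 1 library per condition there was no test between conditions, and intervals are exact Poisson 95% intervals that cover counting error only. Cells were clustered without the 71 genes of the lists above, and clusters were named from markers. The sort left 1445 blood endothelial-like, 204 epithelial-like and 365 erythroid-like cells. A further 1053 cells, in 4 unnamed clusters, were left out of the classes. Of these clusters, those of 328 and of 44 cells had 8 of 8 blood endothelial markers raised. The profibrotic class had 9 naive cells, 8 of them shallow copies. The vascular smooth muscle-like class joined 415 cells led by Actc1, Cnn1 and Myh11 with 388 cells led by Rgs5 and Ccl19, and the text gives both where they differ. The lipofibroblast-like class joined 3 clusters of 1106, 1000 and 608 cells, the last with 227 shallow copies, and the mesothelial-like, pericyte-like and blood endothelial-like classes joined a pair each.

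In whole libraries, Ccn1 (Cyr61) was lower in both Fas-/- libraries than in both Fas+/+ bleomycin libraries, whichever week they belong to. It had 1649 CPM in naive cells, 1241 and 1307 in the libraries labelled week 3 and week 6 Fas+/+, and 940 (926 to 955) and 960 (950 to 971) in those labelled week 3 and week 6 Fas-/-. Amotl2 and Lats2 showed this order too, Amotl2 with 124 and 98.4 against 93.4 and 78.6, and it held for 17.8% of 10902 genes. The opposite order held for Yap1, Wwtr1 and Ankrd1 and for 7.21% of genes. Wwtr1 read 150 and 165 CPM in Fas+/+ and 177 and 168 in Fas-/-. For Amotl2, Lats2, Yap1, Wwtr1 and Ankrd1 the counting intervals of the closest libraries of both genotypes overlapped. Yap1, for example, read 49.7 (47.4 to 52.1) in the library labelled week 6 Fas+/+ and 50.1 (46.8 to 53.6) in that labelled week 3 Fas-/-. Such overlap alone does not place an order within counting error. For Lats2 the closest pair was the libraries labelled week 6. Its log2 ratio of Fas-/- to Fas+/+ was -0.11, with a wholly negative counting interval (-0.19 to -0.029). By class the ratio had both signs, 0.50 (0.12 to 0.88) in pericyte-like cells and -0.18 (-0.38 to 0.033) in the Saa3 and Lcn2-led cluster. Blood endothelial-like cells made up 27.5% of the library labelled week 6 Fas+/+ and 6.52% of that labelled week 6 Fas-/-. In those labelled week 3 the shares were 7.36% and 5.98%. The part of cell makeup in these whole-library orders was not tested. The intervals of Ccn1 did not overlap. Ccn2 (Ctgf) overlapped between genotypes, at 759 and 888 CPM in Fas+/+ and 837 and 939 in Fas-/-. Each condition had a single library, so these orders have no replicate error.

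Within cell classes, the lower Ccn1 (Cyr61) of both Fas-/- libraries was present in 6 of the 10 classes with cells enough in all 4 bleomycin libraries. In lipofibroblast-like cells it read 1531 and 2020 CPM in the libraries labelled week 3 and week 6 Fas+/+ and 923 and 1139 in those labelled week 3 and week 6 Fas-/-, with 1964 in naive cells. The smallest of its 3 clusters, lower in Ccn1 (963 CPM, against 1501 and 1462), held 291 of the 824 cells labelled week 3 Fas-/- and 117 of the 686 labelled week 3 Fas+/+. Both Fas-/- libraries were below both Fas+/+ libraries within each of the 3 clusters, with 1670 and 2058 against 772 and 1138 in the largest, 1461 and 2036 against 1064 and 1161 in the next, and 1055 and 1316 against 774 and 759 in the smallest. In the Saa3 and Lcn2-led cluster the values were 1507 and 2085 against 1125 and 1114, and in vascular smooth muscle-like cells 1377 and 2006 against 887 and 1139. Of the latter, the Actc1-led cluster had this order (1515 and 1784 against 753 and 1068) and the Rgs5-led one did not (1064 and 2470 against 1189 and 1275). Adventitial and profibrotic fibroblast-like cells also had it, as did erythroid-like cells (649 and 545 against 477 and 305), which are not known to make Ccn1 and whose UMIs were read as free RNA; its part in the order was not tested. Airway smooth muscle or ductal myofibroblast-like cells did not (1924 and 1727 against 2048 and 1363), nor did pericyte-like, mesothelial-like and blood endothelial-like cells. Immediate early genes summed to 8080 and 8486 CPM in the Fas+/+ libraries and 8160 and 7736 in the Fas-/- libraries, beside 10322 in naive cells. Both Fas-/- libraries were higher in Wwtr1 in 4 of the 10 classes. They were lower in Amotl2 in 3, and in Lats2 lower in 3 and higher in 1. The classes come from the same 4 libraries and are not separate observations, and these counts have no background over all genes.

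The classes themselves were ordered by the median over libraries with at least 20 cells of the class. Yap1 and Wwtr1 were found in every class of the order. The medians of Yap1 ran from 38.8 CPM in erythroid-like to 64.1 in pericyte-like cells. Those of Wwtr1 ran from 113 in epithelial-like to 207 in airway smooth muscle or ductal myofibroblast-like cells. Neighbouring classes in both orders overlapped over their libraries, but some classes further apart did not. Wwtr1 ran from 176 to 220 in the Saa3 and Lcn2-led cluster and from 112 to 135 in mesothelial-like cells. Yap1 ran from 46.3 to 78.3 in pericyte-like and from 39.8 to 43.4 in blood endothelial-like cells. Erythroid-like cells, read as a measure of free RNA, had a median of 160 CPM of Wwtr1, inside the range of the fibroblast classes. Lats2 was highest in mesothelial-like (152, range 120 to 166) and pericyte-like cells (140, 104 to 151), and Amotl2 in epithelial-like (240, 226 to 286) and mesothelial-like cells (236, 155 to 267), with blood endothelial-like cells next for Amotl2 (130) and Lats2 (104). The mesothelial-like clusters differed: that of 315 cells had 184 CPM of Lats2 and 288 of Amotl2, and that of 396 cells, with 172 shallow copies, 86.7 and 156, so that the first place of Lats2 rests on the former. Amotl2 was lowest in vascular smooth muscle-like cells (47.2), with 34.3 in the Actc1-led and 99.1 in the Rgs5-led cluster.

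**Figure D5:**
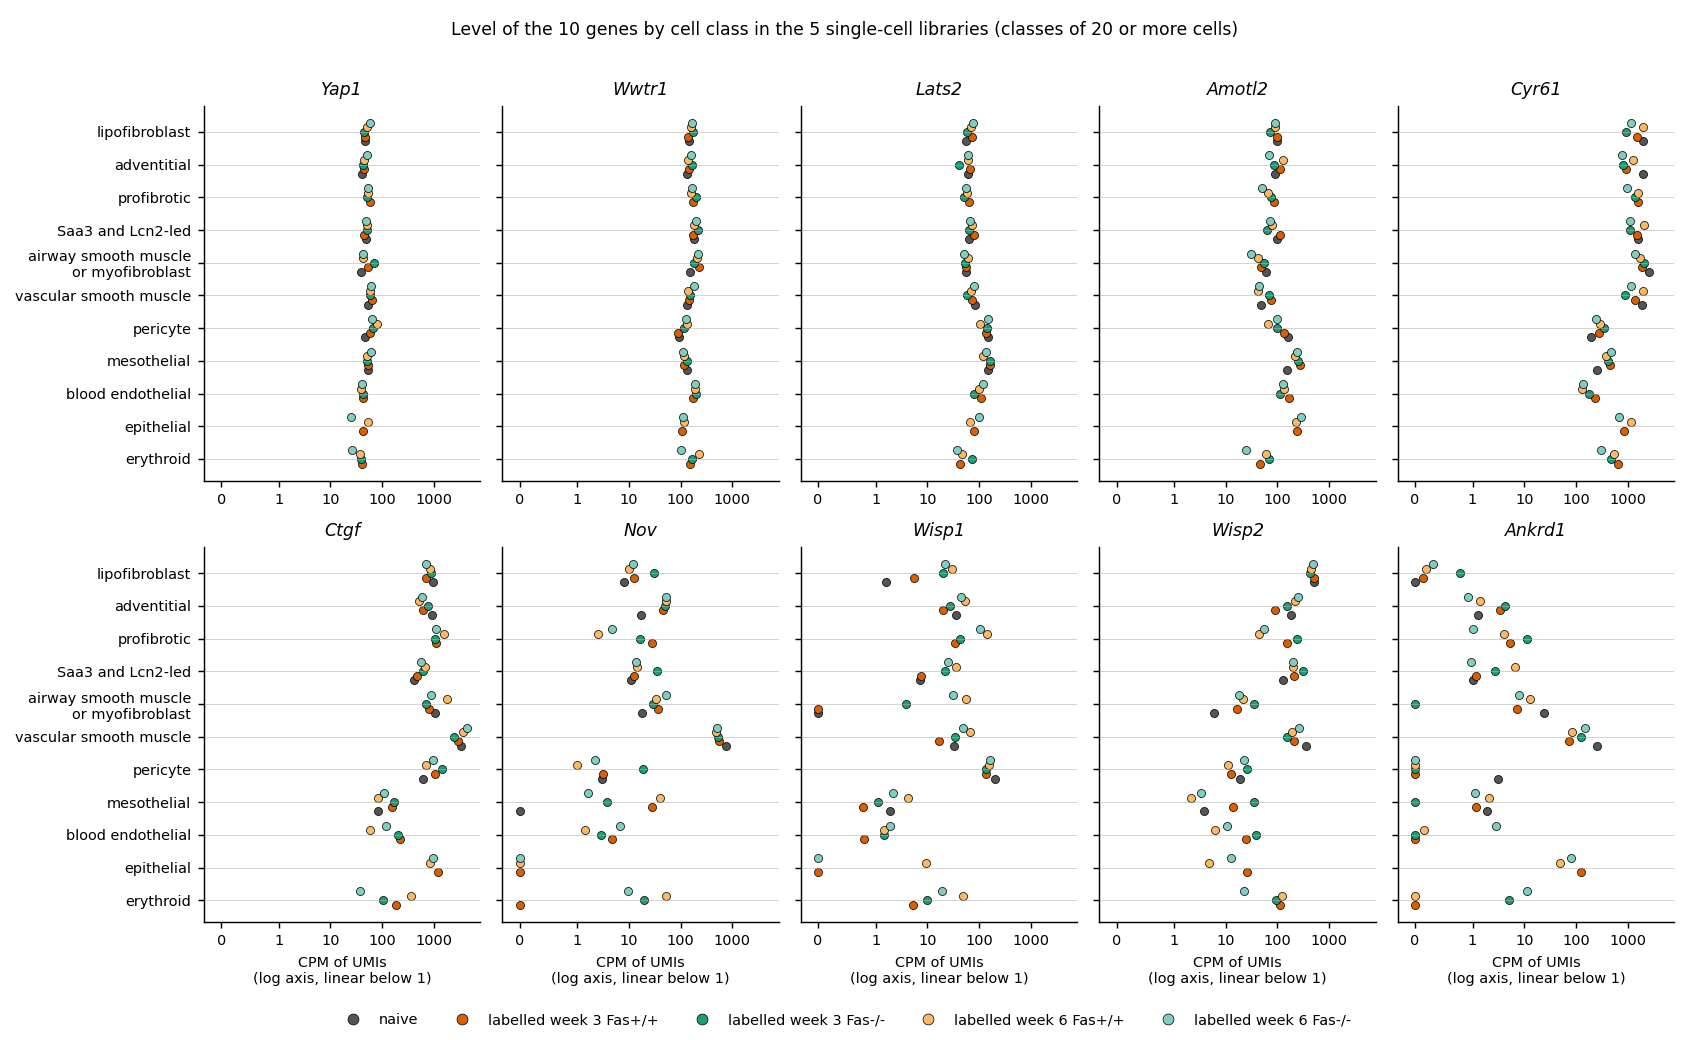
CPM of UMIs (x axes, logarithmic and linear below 1) of the 10 genes in 11 cell classes (rows), with a point for each single-cell library that had at least 20 cells of the class, coloured by label. Ctgf and Nov peak in vascular smooth muscle-like cells, Wisp1 in pericyte-like cells and Wisp2 in lipofibroblast-like cells. Yap1 and Wwtr1 differ less between classes, with medians of 38.8 to 64.1 and of 113 to 207.

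Ccn1 was high in all fibroblast and smooth muscle classes, from 935 CPM in adventitial fibroblast-like to 1924 in airway smooth muscle or ductal myofibroblast-like cells, and low in blood endothelial-like (158) and pericyte-like cells (283). Ccn2 (Ctgf) was concentrated in vascular smooth muscle-like cells. Over the libraries naive and labelled week 3 Fas+/+, week 3 Fas-/-, week 6 Fas+/+ and week 6 Fas-/-, it read 3430, 2953, 2412, 3642 and 4405 CPM there, and no library overlapped with the next class, profibrotic fibroblast-like (median 1090, range 1073 to 1585). The Actc1-led and the Rgs5-led clusters of the class had 4017 and 2435. That class, with 6.66% of the cells and 5.73% of the UMIs of all genes, held 23.1% of all Ctgf UMIs. The profibrotic class, with 16.5% of the UMIs of all genes, held 24%.

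Of the 10, Ccn3 (Nov) had the largest fold between the median of its top class and that of the next. In vascular smooth muscle-like cells it read 751, 549, 524, 491 and 518 CPM over the libraries in the same order, and the next class, adventitial fibroblast-like, had a median of 49.3 with no overlap. This class held 65.6% of its UMIs. The Actc1-led cluster had 3401 of these UMIs and the Rgs5-led one 226, or 738 CPM (713 to 763) against 105 (91.4 to 119). A UMI was found in 75.2% of the cells of the first. Erythroid-like cells had a UMI in 4.11%, at a median depth of 1898 UMIs against 10318 in the Actc1-led cluster. Epithelial-like cells had 0 UMIs, which in the library with the most of them (labelled week 3 Fas+/+) allows up to 3.75 CPM, a limit of 3 UMIs, and pericyte-like cells a median of 3.09 CPM.

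Ccn4 (Wisp1) was highest in pericyte-like cells, at 201, 138, 137, 155 and 163 CPM. In profibrotic fibroblast-like cells it read 34.7 and 42.9 in the libraries labelled week 3 Fas+/+ and week 3 Fas-/- and 146 (137 to 155) and 106 (99.0 to 113) in those labelled week 6 Fas+/+ and week 6 Fas-/-. Those last libraries are the pair whose profiles matched bulk week 3. The ranges of both classes over libraries overlapped, and the pericyte-like clusters of 465 and 292 cells had 165 and 95.5 CPM. The profibrotic class held 46.0% of all Wisp1 UMIs and 16.5% of the UMIs of all genes. Pericyte-like cells held 12.6% and 3.15%. In whole libraries, thinning each cell to 3000 UMIs moved Wisp1 in the library labelled week 6 Fas+/+ from 54.9 to 36.4 CPM, the one whole-library value that moved by more than 1.5 times.

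Ccn5 (Wisp2) marked lipofibroblast-like cells, at 498, 504, 424, 438 and 489 CPM, with no overlap with the next class, vascular smooth muscle-like (median 206). They held 53.0% of its UMIs and 21.7% of the UMIs of all genes. Over all libraries its 3 clusters read 591, 387 and 323 CPM from the largest to the smallest, and the Actc1-led and Rgs5-led clusters 171 and 322. Profibrotic fibroblast-like cells had 153 and 241 CPM in the libraries labelled week 3 Fas+/+ and week 3 Fas-/- and 44.2 and 53.8 in those labelled week 6, the reverse of Wisp1. Erythroid-like cells had a median of 104, so that values near it cannot be told apart from free RNA. Mesothelial-like cells were lowest, at 3.74.

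Ankrd1 was found in vascular smooth muscle-like cells (253, 72.2, 127, 83.4 and 149 CPM) and epithelial-like cells (median 81.9, range 49.0 to 128), which overlapped, and the other classes in the order had medians of 7.93 or less. The first class held 67.4% of its UMIs, at 144 CPM (133 to 155) in the Actc1-led and 63.4 (53.3 to 75.0) in the Rgs5-led cluster. In naive cells, 113 of its UMIs in the Actc1-led cluster came from 5 of 28 cells, so that the naive value rests on few cells. In bulk, Ankrd1 was not called at week 3 in either genotype (0.33, interval -0.37 to 1.02, in Fas+/+). Vascular smooth muscle markers were lower there than in naive libraries. Epithelial markers were higher, at 202 to 683 CPM in week 3 Fas+/+ and 264 to 439 in week 3 Fas-/- against 50.5 to 128. The part of either class in bulk Ankrd1 was not tested.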

How the data were processed

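Bulk RNA-seq of sorted Lin- lung cells gave a deposited table of raw counts per gene, which the authors made from stranded mRNA libraries by trimming with skewer, alignment to GRCm38 with HISAT2 and counting with HTSeq. Single-cell UMI counts were deposited by the authors as 1 filtered Cell Ranger matrix per library (version 3.0.2 in the file headers). A second bulk table, normalized by the authors, was not used. All bulk value columns were matched to a sample; 0 were left over. Versions of HISAT2 and HTSeq are not given in the sources used here.

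Genes passing filterByExpr (minimum count 10, minimum total 15) were fitted with edgeR 4.0.16 (R 4.3.3): TMM scaling, all 5 groups in 1 quasi-likelihood fit, Benjamini-Hochberg adjustment over 15773 genes, and a call at an adjusted p of 0.05 or less. CPM in the text are from the counts and TMM-scaled library sizes, and log2 CPM used a prior count of 2. Single values were tested with 2-sided exact permutation tests. Replicate numbers did not pair libraries. The alternatives were RLE scaling, DESeq2 1.42.0, no filter, the compared groups alone, a replicate block and each library left out in turn. A further one left out the library highest in endothelial markers of each bleomycin group, 4 in all.

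Barcodes were kept when 200 to 7500 genes were detected and mitochondrial UMIs did not exceed 20%, and the cells were integrated (Seurat 5.3.0, sctransform 0.4.2, 3000 features, 20 components) and clustered at resolution 0.8 into 23 clusters. Doublets had been gated out in the sort and the upper gene limit stood for a further filter; no caller was run. Library totals of 5615583 to 35004216 UMIs set the counting intervals.

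The 10 genes, the pathway lists and the markers were chosen with earlier results of these data known. All 10 genes are named in each comparison; of each list, up to 4 called genes with the largest and 4 with the smallest fold change. A gene of the Hippo list is counted but not reported here. The statistics were tested on simulated data.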

Additional observations from a re-analysis of the deposited data

Results flagged for a closer look

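A library that lies far from the other 3 of its group was looked for in 50 groups of 4 (10 genes in 5 groups), by the gap to its nearest neighbour as a share of the group's range on the log2 CPM scale, against Dixon's 95% critical value for 4 samples. Chance alone flags about 1 in 20 groups, and 3 of 50 were flagged. Ccn3 in week 3 Fas-/- was lowest in replicate 4 (gap share 0.845), at 29.3 CPM, the library rich in endothelial markers. Ccn5 in week 6 Fas-/- was highest in replicate 1 (0.908), at 280 CPM. Lats2 in week 6 Fas-/- was lowest in the same replicate 1 (0.832), at 172 CPM. Of the 10 genotype by time interactions tested, 0 were called by edgeR, with 1 at an unadjusted p under 0.05 and 0 by DESeq2. Over all 15773 genes, 1210 interactions had an unadjusted p under 0.05.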

How the results depend on the processing

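Over 1340 recomputed log2 fold changes of the 10 genes, 1310 kept their direction and their side of the threshold, 15 moved past it, 10 lost it and 5 changed sign. The 4 libraries were each the highest of their bleomycin group in endothelial markers. Without them, the number of the 10 genes called rose from 1 to 4 in week 3 Fas-/- against naive. Calls over all genes rose there from 5045 to 6187. The number of the 10 genes called rose from 0 to 1 between genotypes at week 3 (Ccn3). In week 6 against week 3 in Fas-/- it rose from 0 to 2 (Ccn3 and Ccn4), where DESeq2 called 1 (Ccn3). With single libraries left out, the counts ranged from 1 to 3 in week 3 Fas-/- against naive (3 without its replicate 4), from 0 to 1 in week 6 Fas+/+ against naive (0 without naive replicate 4 or week 6 Fas+/+ replicate 3), from 2 to 3 in week 3 Fas+/+ against naive and from 3 to 6 in week 6 against week 3 in Fas+/+ (6 without week 3 Fas+/+ replicate 1). Sign changes without the 4 libraries were Lats2 in week 3 Fas+/+ against naive (-0.12), Ankrd1 in week 6 against week 3 in Fas+/+ (-0.19) and the Ccn1 interaction (0.30). With single libraries left out, Lats2 in week 3 Fas+/+ against naive ran from -0.12 to 0.078, and Amotl2 between genotypes at week 3 from -0.20 to 0.22. The causes were not tested. Over all genes, calls between genotypes numbered 27 at week 3 (164 by DESeq2, 5 with the groups alone, 45 with the replicate block, 1289 without the 4 libraries), 8 at week 6 (170, 1, 0 and 117 in the same order) and 1 for the interaction (100, 0, 3 and 250; 3 with no filter). Week 6 against week 3 gave 3615 in Fas+/+ (5863 without the 4 libraries) and 1422 in Fas-/- (891 with no filter, 2650 without the 4 libraries). Against naive at week 6, 837 genes were called in Fas+/+ (1423 by DESeq2, 1595 with the groups alone, 1525 without the 4 libraries) and 1022 in Fas-/- (1586 by DESeq2, 1848 without the 4 libraries). The replicate block left the counts of the 10 genes as they were, at 3, 1, 1, 0, 0, 0, 4, 0 and 0 over the 9 comparisons; 3 of 20 libraries were closest to their own number, so the numbers were not read as pairs. Single-cell values rest on 1 library per condition, and thinning cells to 3000 UMIs moved 32 of 50 whole-library values beyond their counting interval and 192 of 500 class values, 85 of them by over 1.5 times, of which 37 had a level over 10 CPM. Classes drawn from marker UMIs per cell moved 120 of 440 class values, 62 by over 1.5 times.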
